A study of Mus musculus with 16 samples.

Results

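CDR3s in which the V segment ran directly into the J segment, with no base left for N addition, were followed here through TCRα repertoires of mouse CD8 T cells. A CDR3 nucleotide sequence was counted as N-free when the first base of its J alignment came no later than the end of its V alignment, so that the gap between both alignments was 0 bases or less. Of the 83992 sequences in 16 libraries, 28089 (33.4%) were N-free, 26196 of 78671 where all CD8 cells were taken and 1893 of 5321 in the sorted libraries, and each sequence had the positions this needs. The N-free sequences were 22214 distinct nucleotide sequences that encoded 14901 distinct amino acid CDR3s, and 331 nucleotide sequences were N-free in one record and not in another.

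The question of the study was whether loss of Themis, a T cell protein that takes part in thymic selection, changed the receptors of CD8 T cells. Libraries were made from total RNA of C57BL/6 mice of the genotypes Themis+/+Foxp3-GFP and Themis-/-Foxp3-GFP, so both genotypes carry the Foxp3-GFP reporter, and the Themis-/- allele is a germline deletion. SP thymocytes and lymph node (LN) T cells of the CD8 lineage were taken either as all CD8 cells or after sorting for Vα3.2, the product of TRAV9N-3, which gives 8 groups of 2 libraries. Per the methods, LN came from a pool of several mice, and the labels give no age and do not say whether the libraries of a group came from separate mice. Themis itself is not read by a TCRα library, so genotypes rest on the labels, and 1 label field of the sorted samples names another Vα than Vα3.2. TRAV9 segments made up 94.0% to 99.0% of the sequences of a sorted library and 2.29% to 6.52% of those of a library of all CD8 cells, where 9 to 203 sequences carried a TRDV segment.

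A TCRα gene is assembled in thymocytes by joining 1 of many V segments to 1 of many J segments, while nucleases trim the ends and the enzyme TdT adds N nucleotides that no germline segment encodes. Hairpin opening can also leave P nucleotides, a short palindromic copy of a segment end. A junction without N nucleotides is set by the germline alone, so the same sequence can arise again in other cells and other animals, and such receptors are frequent before birth, when little TdT is made.

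The sequences below show such junctions as they were aligned. They are the 5 N-free CDR3s found in the most libraries of each sort, with the most abundant ones added, and capitals mark the bases that the V and the J alignment both cover or, where both only meet, the base on each side. For those with TRAV14N-1, TRAV14N-2, TRAV16N, TRAV7D-2, TRAV12N-3 or TRAJ7 the alignments were not exact, as explained below. Capitals there need not be bases that both germline segments hold. The joins of TRAV9N-3 with TRAJ33, TRAJ4 and TRAJ21 counted as exact, since short palindromes were allowed. In these 3 joins each alignment ran 2 palindromic bases past its germline end, so none of their capitals is held by both germline segments.
All CD8, TRAV14N-1 and TRAJ22: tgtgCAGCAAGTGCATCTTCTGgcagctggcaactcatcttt
All CD8, TRAV14N-2 and TRAJ22: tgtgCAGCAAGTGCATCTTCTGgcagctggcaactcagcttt
All CD8, TRAV16N and TRAJ22: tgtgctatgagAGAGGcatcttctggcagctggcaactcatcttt
All CD8, TRAV3N-3 and TRAJ30: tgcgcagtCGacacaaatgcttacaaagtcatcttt
All CD8, TRAV7D-2 and TRAJ9: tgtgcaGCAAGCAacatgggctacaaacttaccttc
All CD8, TRAV12N-3 and TRAJ50: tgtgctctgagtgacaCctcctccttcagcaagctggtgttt
Vα3.2, TRAV9N-3 and TRAJ9: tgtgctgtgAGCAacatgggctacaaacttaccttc
Vα3.2, TRAV9N-3 and TRAJ7: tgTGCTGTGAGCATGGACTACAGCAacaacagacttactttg
Vα3.2, TRAV9N-3 and TRAJ33: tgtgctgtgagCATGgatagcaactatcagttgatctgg
Vα3.2, TRAV9N-3 and TRAJ4: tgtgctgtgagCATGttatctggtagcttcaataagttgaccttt
Vα3.2, TRAV9N-3 and TRAJ21: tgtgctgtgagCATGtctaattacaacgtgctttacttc
Vα3.2, TRAV9N-4 and TRAJ4: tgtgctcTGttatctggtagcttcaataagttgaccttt

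The germline ends of the segments in these CDR3s, from GENCODE release M21 on GRCm38, are needed to read them. Each stretch runs from the codon of the conserved cysteine to the end of a V segment, or from the start of a J segment to the last base of the CDR3, on the plus strand.
TRAV9N-3, chr14:53232090-53232102: tgtgctgtgagca
TRAV14N-1, chr14:53167166-53167178: tgtgcagcaagtg
TRAJ22, chr14:54197248-54197276: catcttctggcagctggcaactcatcttt
TRAJ9, chr14:54209393-54209419: agcaacatgggctacaaacttaccttc
TRAJ33, chr14:54185358-54185383: tggatagcaactatcagttgatctgg
TRAJ7, chr14:54211470-54211497: ggactacagcaacaacagacttactttg

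The most abundant N-free CDR3 of all CD8 cells joined the whole 13 bases of TRAV14N-1 to the whole 29 bases of TRAJ22, which gives its 42 bases. It was present in all 8 libraries of all CD8 cells, at 0.308% of the reads in the library where it was lowest, a median of 0.409% and 0.727% where it was highest, and no library of sorted cells held it. The CDR3 listed with TRAV14N-2 and TRAJ22 differs from it only by a T to G change within the last 9 bases. TRAV14N-1 and TRAV14N-2 have the same germline stretch. In all CD8 cells T to G made up 77.3% of the mismatches to J in these bases, and whether this is a separate CDR3 was not tested. The CDR3 listed with TRAV14N-2 was also present in all 8, at 0.132% to 0.378% of the reads. In the sorted libraries the join of TRAV9N-3 and TRAJ9 was present in all 8, at 0.471% and 0.907% of the reads in Themis+/+ thymocytes, 1.06% and 0.0959% in Themis-/- thymocytes, 0.707% and 0.658% in Themis+/+ LN and 0.574% and 0.644% in Themis-/- LN. Its 36 bases are 4 fewer than both germline stretches hold together, because the last 4 bases of TRAV9N-3 and the first 4 of TRAJ9 are the same, agca, and either segment could have given them. The genotypes overlapped in thymocytes for this sequence, while in LN both Themis-/- values lay below both Themis+/+ values.

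Direct joins of TRAV9N-3 to the whole of TRAJ33, TRAJ4 or TRAJ21 were each present in 7 of 8 sorted libraries. All of them read atg at the join, the codon of methionine at position 5 of the CDR3, of which TRAV9N-3 gives the a and the J segment the tg. The join with TRAJ33 made up 0.295% to 1.91% of the reads where it was found. The join with TRAJ4 reached 3.03% in a Themis-/- thymus library and 0.0771% to 0.287% in the other 6 libraries that held it. In the thymus library where it was highest, 86 sequences were found in all, so single CDR3s weigh more there.

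A few abundant N-free CDR3s belonged to 1 library. The join of TRAV9N-4 and TRAJ4 made up 8.08% of the reads of Themis+/+ thymus replicate 1 of the sorted libraries and was in no other sorted library, while 2 libraries of all CD8 cells held it. The join of TRAV12N-3 and TRAJ50 made up 1.20% of the reads of Themis-/- thymus replicate 1 of all CD8 cells and was in no other library. Its V alignment ran past the germline end of TRAV12N-3, by 4 bases, so it was not covered by germline bases alone.

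The join of TRAV9N-3 and TRAJ7, in all 8 sorted libraries at 0.00857% to 0.518% of the reads, shows the limit of the definition. Between the whole of TRAV9N-3 and the whole of TRAJ7 it holds 1 further base, t, which a palindrome of the V end could give. The V reference of the files goes on for 20 bases past the germline end, and the V and J alignments of this CDR3 overlapped by 23 bases. Alignments of this kind were common among the N-free sequences: 42.4% of them had V and J alignments without mismatch, insertion, deletion or long palindrome at the junction, against 92.0% of the other CDR3s. Insertions or deletions were present in 6619 N-free sequences, and the longest overlap was 31 bases.

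For this reason 2 stricter definitions are given beside the first. With exact alignments, only the 11908 N-free sequences aligned without such changes were kept. The other CDR3s they were compared with were not filtered in this way. With GENCODE germline ends, a CDR3 was N-free when the longest exact stretches of its germline V and J segments covered it, with no palindrome and leaving the last 9 bases uncompared, and 11489 of 83180 sequences (13.8%) met this. They included 11217 of the 27866 N-free sequences for which germline ends were known (40.3%) and 272 sequences outside the first definition.

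**Figure D1:**
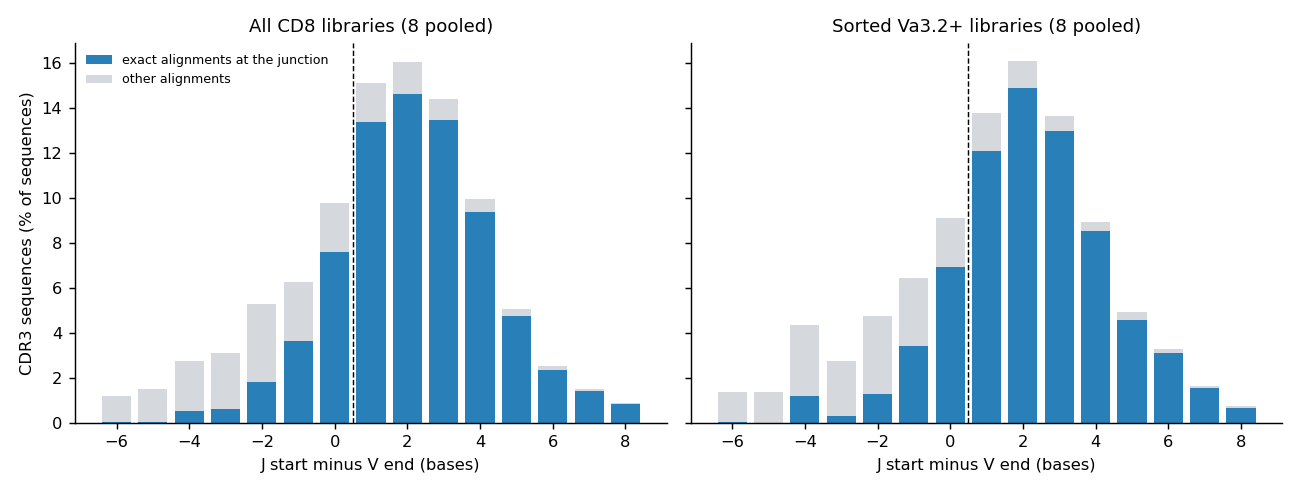
Percent of CDR3 sequences (y axis) at each gap between the end of the V alignment and the start of the J alignment in bases (x axis), for the 8 libraries of each sort pooled; the blue part of a bar has exact alignments and the dashed line divides N-free CDR3s (left) from the others. At a gap of 1 or more nearly all of a bar is blue, while at -5 and -6 almost none is.

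Reads and sequences differed between the sorts. Libraries of all CD8 cells held 57455 to 146191 reads and 4357 to 16670 sequences, and sorted libraries 10338 to 25247 reads and 84 to 1610 sequences, with the fewest, 84 and 86, in replicate 1 of both thymus groups. Where all CD8 cells were taken, 52.4% of the sequences had a mismatch to J in the last 9 bases of the CDR3, whether or not J also had one nearer the junction, 77.3% of these mismatches being T to G, against 0.846% of sequences in the sorted libraries. Counting sequences that differ only there as 1 removed 40.9% to 50.7% of the sequences of a library of all CD8 cells and 0.0% to 1.06% of those of a sorted library, and results were recomputed on these merged sequences. No molecular identifiers are described, so reads are not independent molecules, intervals cover counting error only, and more cells of a clone cannot be told apart from more RNA per cell.

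To find out whether genotype, tissue or sort changed the share of N-free CDR3s, shares were compared between libraries with exact permutation tests, two-sided, which exchange labels within strata of the other conditions. With 2 libraries a group these p-values measure the spread between libraries, which may be technical. It is not stated whether libraries of different tissues or sorts came from the same mice. Tests over strata take the strata as independent, so shared mice would make their p-values too small. In all CD8 cells of LN, 33.3% and 33.4% of the sequences were N-free in Themis+/+ and 35.2% and 37.3% in Themis-/-. In all CD8 thymocytes the share was 31.8% and 33.1% in Themis+/+ and 33.1% and 33.3% in Themis-/-. Both pairs lay apart without overlap, the higher values being those of Themis-/-.

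In sorted Vα3.2+ cells of LN the share was 34.8% and 36.6% in Themis+/+ and 36.0% and 34.7% in Themis-/-, which overlapped. In sorted thymocytes it was 47.6% and 36.0% in Themis+/+ and 32.6% and 34.3% in Themis-/-. The value of 47.6% rests on 84 sequences, with a 95% Wilson interval of 37.3% to 58.2%, and was the highest of all libraries.

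Across all 16 libraries the share did not differ detectably between the genotypes, at -1.24 percentage points for Themis-/- less Themis+/+ (exact permutation p = 0.715), or 0.205 points (exact p = 0.773) without replicate 1 of the sorted Themis+/+ thymocytes. Within all CD8 cells the difference was 1.88 points (exact p = 0.0556, the smallest that 4 against 4 libraries in 2 strata allow) and within sorted cells -4.36 points (exact p = 0.111). The genotype difference itself differed between the sorts by 6.23 points (exact permutation p = 0.00617; 0.0247 with Benjamini-Hochberg adjustment over 4 such tests). This gap fell to 3.34 points (exact p = 0.0123) without replicate 1 of the sorted Themis+/+ thymocytes, and was no longer called without either sorted Themis-/- thymus library (5.79 points, exact p = 0.224, and 6.68 points, exact p = 0.167). With exact alignments it was 2.20 points (exact p = 0.0756) and with GENCODE germline ends 2.41 points (exact p = 0.256), neither of which passed.

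LN and thymus shares differed by -0.0551 points over all 16 libraries (exact permutation p = 1.0). Within all CD8 cells LN was higher by 1.98 points (exact p = 0.0556, again the smallest possible) and within sorted cells lower by 2.09 points (exact p = 0.889). With exact alignments the 4 sorted LN libraries (11.9% to 13.7%) lay below the 4 sorted thymus libraries (14.3% to 19.05%), at -2.97 points (exact p = 0.0556, the smallest possible), and with GENCODE germline ends the difference was -2.56 points (exact p = 0.222). Without replicate 1 of the sorted Themis+/+ thymocytes, LN was higher by 1.39 points over the remaining 15 libraries (exact p = 0.0340). Sorted Vα3.2+ cells had a share 2.80 points above that of all CD8 cells (exact p = 0.0725), and passed the test without any one of 3 Themis-/- libraries, at 2.96 points without sorted LN replicate 2 (exact p = 0.0478), 3.02 without sorted thymus replicate 1 (exact p = 0.0370) and 3.05 without LN replicate 2 of all CD8 cells (exact p = 0.0231). The value depended on the definition, as it was 3.75 points (exact p = 0.00926) with merged sequences and -2.60 points (exact p = 0.0509) with GENCODE germline ends.

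**Figure D2:**
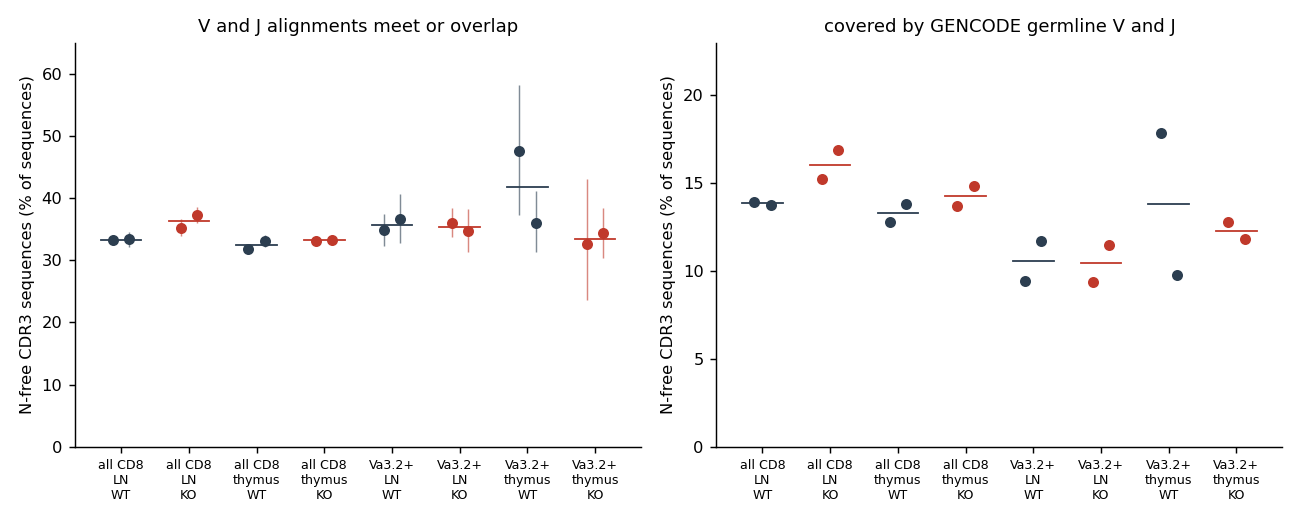
N-free sequences as percent of the sequences of a library (y axis) by group (x axis; WT, Themis+/+, dark; KO, Themis-/-, red), by the alignments of the files with 95% Wilson intervals (left) and by GENCODE germline ends (right, another y scale); points are libraries and lines group means. Replicate 1 of the sorted Themis+/+ thymocytes stands highest in both panels, at 47.6% and 17.9%.

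N-free CDR3s were shorter than the others in each library. In all CD8 cells their mean length was 39.5 bp where lowest, a median of 39.8 bp and 39.97 bp where highest, against 40.7, 40.9 and 41.2 bp in the other CDR3s, a difference of -1.16 ± 0.0957 bp (SD, n = 8 libraries). Length holds the inserted bases that define the classes, and the germline part, trimming and whole ends are read from the same alignment positions, so these values are a description without a test. The other CDR3s held 2.86 to 3.21 inserted bases, and less these their germline part was 37.8 to 38.1 bp, below the length of N-free CDR3s. As read from these positions, their ends lacked 5.14 to 5.39 bases against 2.76 to 3.23 in N-free CDR3s, but an alignment that runs further both lowers this number and closes the gap. Both ends were whole in 20.4% to 25.5% of N-free sequences and in 3.11% to 4.77% of the others. With GENCODE germline ends the difference in length was -2.66 bp.

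N-free CDR3s were shorter in Themis-/- than in Themis+/+ cells. In all CD8 thymocytes their mean length was 39.9 and 39.9 bp in Themis+/+ and 39.6 and 39.5 bp in Themis-/-, and in sorted thymocytes 40.4 and 39.8 bp against 39.5 and 39.6 bp. In LN it was 39.97 and 39.9 bp against 39.8 and 39.8 bp in all CD8 cells, and 40.2 and 39.8 bp against 39.8 and 39.8 bp in sorted cells. Only the sorted LN libraries overlapped. The values of 40.4 and 39.5 bp in sorted thymocytes rest on 40 and 28 N-free sequences, and this stratum had the largest difference, -0.538 bp.

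Over the 4 strata the difference was -0.289 bp (exact permutation p = 0.00617, n = 8 libraries a genotype), and it remained past the threshold when any 1 of the 16 libraries was left out, with p-values of up to 0.0231. These p-values rest on strata that do not share mice, which the labels do not show. With GENCODE germline ends the difference was -0.471 bp (exact p = 0.00154, the smallest possible). The other CDR3s differed by -0.0662 bp between the genotypes (exact permutation p = 0.628), a mean over strata that went both ways. In all CD8 cells they were also shorter in Themis-/- without overlap, by 0.248 bp in LN and 0.203 bp in thymocytes, while the genotypes overlapped in sorted cells (0.239 bp in LN and -0.0530 bp in thymocytes). The difference between both classes, -0.223 bp, did not pass (exact p = 0.227), except with exact alignments (-0.376 bp, exact p = 0.0340). A genotype effect particular to N-free CDR3s is thus not shown. LN and thymus lengths of N-free CDR3s differed by 0.109 bp (exact p = 0.236). Neither the overlap of V and J alignments (-0.0986 bases, exact p = 0.435) nor the bases trimmed (0.0662, exact p = 0.431) differed detectably between the genotypes.

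**Figure D3:**
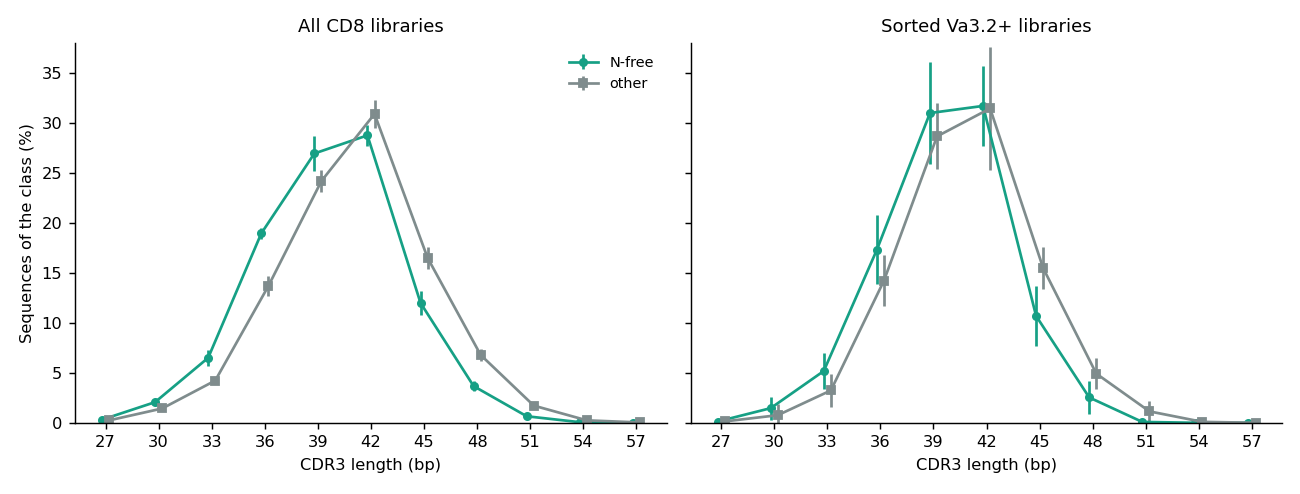
Percent of the sequences of a class (y axis) at each CDR3 length in bp (x axis), for N-free (green) and other CDR3s (grey), as mean ± SD over the 8 libraries of each sort. At 36 bp N-free CDR3s lie above the others in all CD8 cells (18.9% against 13.7%), and at 45 bp below them (11.98% against 16.5%).

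N-free CDR3s were found again in other libraries more often than the rest. In all CD8 cells 30.5% of the N-free sequences of a library at the lowest, 33.1% at the median and 38.1% at the highest were present in another of the 8 libraries, against 10%, 11.4% and 12.7% of the other sequences. The classes lay far apart, N-free being higher by 22.4 ± 1.86 points (SD) and higher in 8 of 8 libraries (exact paired permutation p = 0.00781, the smallest possible). In sorted cells the shares were 39.1%, 50.1% and 64.3% against 18.7%, 24.02% and 34.1%, again higher in 8 of 8 libraries, by 26.7 ± 7.80 points (exact p = 0.00781). A shared sequence counts in each library that holds it, so the 8 differences of a sort are not independent. Neither the 8 of 8 nor these p-values thus measure 8 separate replications.

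The difference held under each alternative that kept all 8 libraries. It was 22.1 points within classes of equal reads, 23.1 points among CDR3s of 39 and 42 bp, 17.6 points when only libraries of the other genotype were searched, 16.9 points when V and J also had to be the same and 25.4 points for amino acid CDR3s. With GENCODE germline ends it was 36.4 points, with 46.9% to 54.5% of N-free sequences found again. The share of N-free sequences rose with spread: of the 64337 sequences in 1 library of all CD8 cells 27.4% were N-free, of the 4058 in 2 libraries 52.0%, of the 981 in 3 libraries 64.3%, and of the 563 in 4 or more 80.6%. In sorted cells N-free sequences made up 27.5% of the 3700 found in 1 library and 63.8% of the 105 found in 4 or more. Sequences that were N-free in one record and not in another, 264 in all CD8 cells and 16 in sorted cells, are left out of these counts. These pooled shares are a description, with no test.

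**Figure D4:**
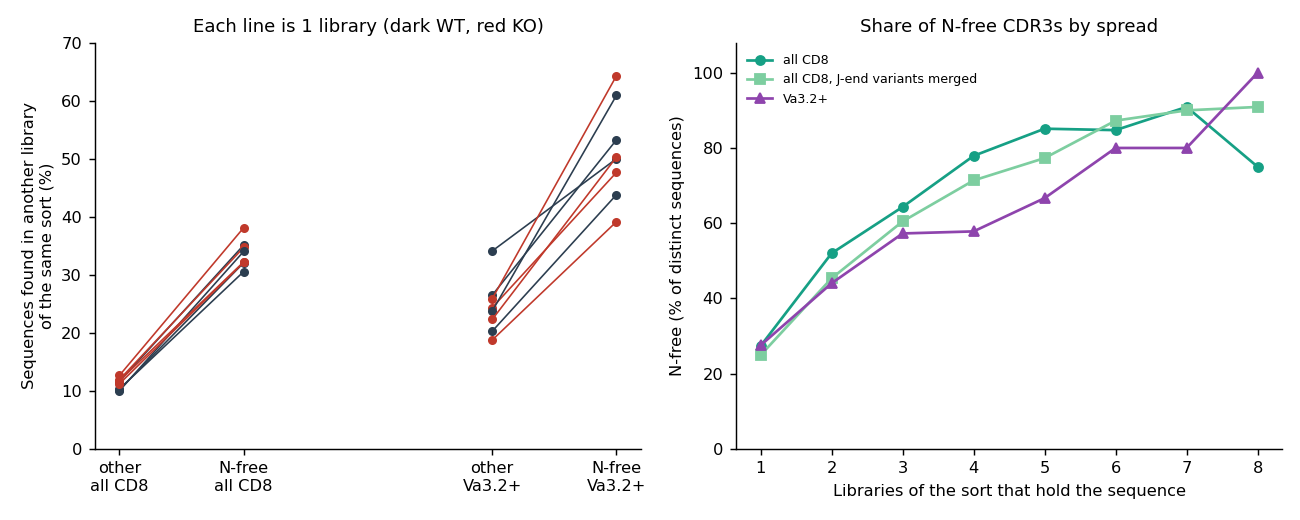
Left, percent of a library's sequences found in another library of the same sort (y axis) for other and N-free CDR3s (x axis), each line being 1 library (dark, Themis+/+; red, Themis-/-). Right, N-free sequences as percent of the distinct sequences (y axis) present in 1 to 8 libraries of a sort (x axis); all lines on the left rise, and on the right the last point of all CD8 cells rests on 8 sequences and that of sorted cells on 2.

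The amino acid CDR3 of an N-free sequence was encoded by more nucleotide sequences of its library. This number of nucleotide sequences per amino acid CDR3 was averaged over sequences, so an amino acid CDR3 with many of them counts many times. In all CD8 cells it was 1.52 at the lowest, 1.65 at the median and 1.90 at the highest for N-free sequences. For the others it was 1.37, 1.46 and 1.55. N-free was higher in 8 of 8 libraries by 0.235 ± 0.0901 (SD, exact paired permutation p = 0.00781). Merging sequences that differ in the last 9 bases left 0.142. In sorted cells the difference was 0.0332, higher in 5 of 8 libraries (exact p = 0.109). Of the N-free amino acid CDR3s of a library of all CD8 cells, 4.03% to 10.5% were also encoded by a sequence with inserted bases.

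Clone size differed little. In all CD8 cells the mean log2 reads per sequence was 2.11, 2.42 and 2.77 (lowest, median, highest) for N-free and 2.01, 2.29 and 2.64 for other sequences, a difference of 0.11 ± 0.0254 (SD) that was positive in 8 of 8 libraries (exact paired permutation p = 0.00781). The median reads of both classes ranged from 4 to 6. Sequences seen in 1 read made up 16.5% of N-free and 18.9% of other sequences at the median, and the share was lower in N-free CDR3s by 1.49 points (exact p = 0.0234, higher in 1 of 8 libraries). In sorted cells neither differed detectably (-0.10 on the log2 scale, exact p = 0.469; 0.983 points, exact p = 0.492). Of the 100 most abundant sequences of a library, 35 to 47 were N-free in all CD8 cells and 25 to 49 in the 6 sorted libraries that held over 100 sequences. Among all sequences of these libraries the N-free share was 31.8% to 37.3% and 34.3% to 36.6%. Counts in sorted libraries thus lay on both sides of that share, and none of these counts was tested.

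The bases and residues of N-free CDR3s also differed. Both were read over the whole CDR3, which in the other sequences holds the inserted bases that define the classes. The tests therefore cannot tell these inserted bases from a difference in the germline part. Their GC content was 45.8%, 46.2% and 46.3% (lowest, median, highest) against 47.3%, 47.4% and 47.7%, lower in 8 of 8 libraries by 1.28 ± 0.141 points (SD, exact paired permutation p = 0.00781), and still lower by 0.809 points among CDR3s of 39 and 42 bp. Of 20 residues, 6 were more and 4 less frequent in N-free CDR3s (50.0% in either direction), each with an adjusted p of 0.0156 (exact paired permutation tests in 8 libraries, Benjamini-Hochberg adjustment over 20 residues) and with the same direction in 8 of 8 libraries. Glycine, the smallest residue, made up 9.44% of residues against 10.5%, and proline, which bends the chain, 0.840% against 1.49%. Lysine and glutamate, which are charged, were lower by 0.292 and 0.284 points.

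Serine was higher, at 9.89% against 9.17%, asparagine at 7.98% against 7.40%, aspartate at 3.13% against 2.69% and methionine at 1.64% against 1.42%. Serine was lower instead with exact alignments (-0.231 points) and with GENCODE germline ends (-0.121 points), without passing the test in either. Lysine turned to 0.125 points with GENCODE germline ends and aspartate to -0.0141 points in sorted cells, again without passing. Methionine at position 5 of sorted TRAV9-3 CDR3s, the residue of the direct joins above, was present in 20.7% to 36.1% of N-free and in 12.7% to 25.9% of other sequences of a library, but with GENCODE germline ends in 8.55% to 25.0% of N-free and 19.4% to 27.9% of other sequences, so its direction rests on the definition.

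J segments were used unequally. Sequences per J segment were compared between N-free and other CDR3s in the all CD8 libraries (n = 8) with the quasi-likelihood test of edgeR. Of 43 J segments tested, 9 were used more in N-free CDR3s (20.9%) and 10 less (23.3%) at an adjusted p under 0.05. The median log2 fold change over all 43 was -0.05. J segments are numbered from the constant region outwards, so TRAJ61 lies nearest to the V segments and TRAJ2 nearest to the constant region. Of those from TRAJ48 to TRAJ61, 1 of 8 was higher and 0 lower (median log2 fold change 0.14), from TRAJ37 to TRAJ47 0 of 9 were higher and 6 lower (-0.43), from TRAJ21 to TRAJ35 3 of 13 were higher and 4 lower (-0.12), and from TRAJ2 to TRAJ18 5 of 13 were higher and 0 lower (0.22). These 4 stretches had, with GENCODE germline ends, 1, 0, 0 and 3 segments higher and 0, 1, 2 and 0 lower, with medians of 0.17, -0.01, -0.04 and -0.06, so the spread between stretches was smaller.

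TRAJ7 was higher most. Of its sequences, 36.9% were N-free in the library where the share was lowest, 53.4% at the median and 56.6% where it was highest. Its log2 fold change was 0.97 ± 0.10 (SE), and 2.34 ± 0.22 in sorted cells. With GENCODE germline ends it was -0.08 ± 0.16 in all CD8 cells and was not called. In these cells 27.6% of the N-free sequences with TRAJ7 met that definition, against 41.1% of all N-free sequences. TRAJ16 was higher in all CD8 cells by both definitions, by 0.62 ± 0.12 with the alignments of the files and 0.75 ± 0.13 with GENCODE germline ends (edgeR, adjusted p = 0.00261), but in sorted cells it was -0.40 ± 0.36 and was not called (edgeR, adjusted p = 0.440). Between 35.5% and 56.8% of its sequences were N-free, with a median of 44.3%, and its use in N-free sequences was 2.48% ± 0.571 (SD) against 1.64% ± 0.474.

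TRAJ28 (0.56 ± 0.18) and TRAJ22 (0.41 ± 0.09) were also higher in 8 of 8 libraries. TRAJ28 kept its size with GENCODE germline ends (0.63 ± 0.26) without passing the test (edgeR, adjusted p = 0.0996). TRAJ22 was the J segment of 3 of the most widespread CDR3s, if those listed with TRAV14N-1 and TRAV14N-2 are counted apart. It turned to -0.23 ± 0.10 with GENCODE germline ends and to -0.47 ± 0.11 with exact alignments (edgeR, adjusted p = 0.00371). The J segments lower in 8 of 8 libraries were TRAJ24 (-2.58 ± 0.22), TRAJ47 (-0.67 ± 0.15), TRAJ40 (-0.55 ± 0.10) and TRAJ26 (-0.29 ± 0.09). TRAJ40 was no longer called with GENCODE germline ends (-0.16 ± 0.13, edgeR, adjusted p = 0.407) or with exact alignments (-0.16 ± 0.11, edgeR, adjusted p = 0.314). TRAJ26 was not called there either (-0.03 ± 0.10 and -0.06 ± 0.11, edgeR, adjusted p = 0.998 and 0.697), nor without replicate 1 or replicate 2 of each group (edgeR, adjusted p = 0.228 and 0.0617).

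The low use of TRAJ24 and TRAJ47 goes together with the reference of the files, which starts later than the germline segment. The capitals mark the germline bases of these segments, and of a V segment named below, that this reference lacks.
TRAJ24, chr14:54195638-54195669: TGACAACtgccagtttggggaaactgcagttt
TRAJ47, chr14:54171800-54171825: TGgactatgcaaacaagatgatcttt
TRAV9-2, chr14:53591502-53591514: tgtGTTTTGAGCG
Only 63 of 806 TRAJ24 sequences were N-free, between 2.50% and 10.1% of those of a library, and 98.3% of the others showed no trimming of J. With GENCODE germline ends 9.63% to 18.6% of TRAJ24 sequences were N-free, close to other segments, and the log2 fold changes were 0.05 ± 0.15 for TRAJ24 and 0.01 ± 0.21 for TRAJ47. Of 43 J segments compared with GENCODE, 3 started later in the files, TRAJ45 (-0.45 ± 0.16, and -0.01 ± 0.12 with GENCODE germline ends) being the other one. By GENCODE germline ends 4 J segments were higher (TRAJ16, TRAJ18, TRAJ56 and TRAJ13) and 3 lower (TRAJ21, TRAJ37 and TRAJ23), of which TRAJ16, TRAJ18, TRAJ37 and TRAJ23 were called in the same direction with the alignments of the files.

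**Figure D5:**
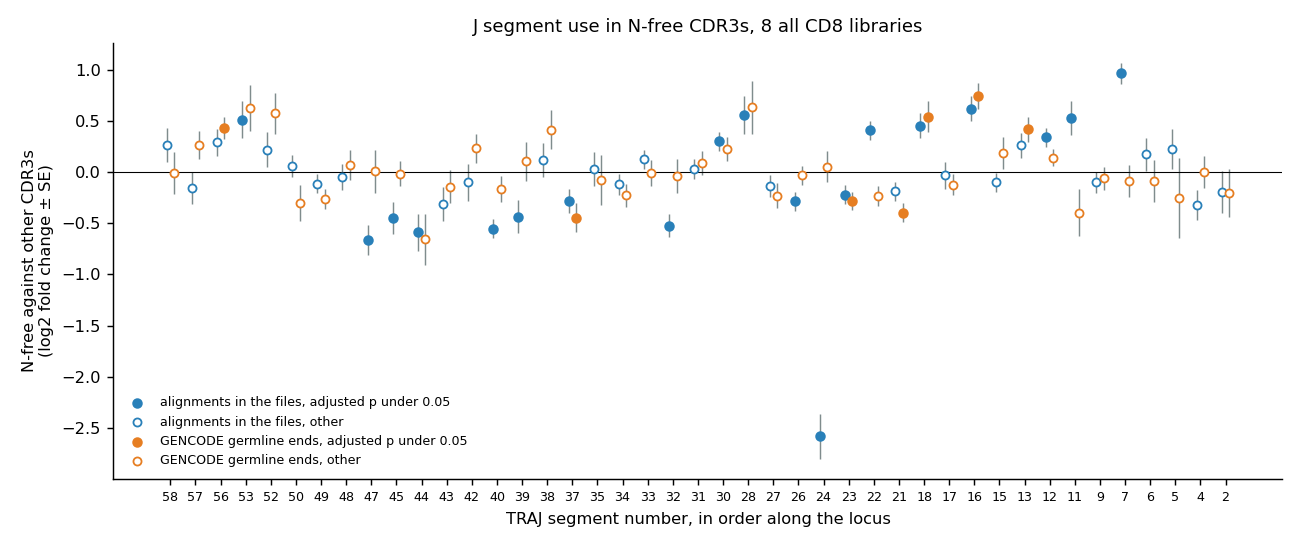
Log2 fold change ± SE (y axis) of the use of each J segment in N-free against other CDR3s in 8 libraries of all CD8 cells, along the order of J segments (x axis), by the alignments of the files (blue) and by GENCODE germline ends (orange); filled points passed the test. TRAJ24 lies at -2.58 in blue and at 0.05 in orange, while TRAJ16 is filled in both colours.

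V segment use was compared in the same way. Copies of a V segment that arose by duplication, whose names differ by the letters D or N, share most of their bases and were counted together. Of 50 V segments tested, 2 were used more in N-free CDR3s (4.0%) and 1 less (2.0%) at an adjusted p under 0.05, and 14 had an unadjusted p under 0.05. With exact alignments 4 V segments were higher and 6 lower, and of the J segments 6 were higher and 3 lower. TRAV16 was higher by 0.36 ± 0.07 on the log2 scale, with 36.3% of its sequences N-free at the lowest, 37.5% at the median and 48.3% at the highest, and by 0.52 ± 0.08 with GENCODE germline ends (edgeR, adjusted p = 5.7e-05). TRAV9-3, to which TRAV9N-3 belongs, was higher by 0.56 ± 0.16, with 32.7%, 43.8% and 55.0% N-free, but by 0.16 ± 0.22 with GENCODE germline ends, where it was not called. Of its copies, the reference of the files lacks the last 2 germline bases of TRAV9D-3 (3161 sequences over all 16 libraries) and none of TRAV9N-3 (2525). TRAV9-2 was lower by 1.13 ± 0.25, with 6.25%, 16.5% and 31.3% N-free, and by 0.63 ± 0.31 with GENCODE germline ends (edgeR, adjusted p = 0.165). Among its copies the reference ends 10 bases short for TRAV9-2 itself (290 sequences) and TRAV9N-2 (7) and is whole for TRAV9D-2 (279). Among the larger V families, the median share of N-free sequences over the 8 libraries ran from 30.3% in TRAV14 (28.7% to 35.4%) and 31.6% in TRAV12 (28.3% to 33.3%) to 37.5% in TRAV16 and 38.96% in TRAV8 (32.4% to 45.2%). The ranges of TRAV14 and TRAV12 overlapped, as did those of TRAV16 and TRAV8, while TRAV12 and TRAV16 did not overlap. Leaving out replicate 1 of each group kept none of these calls, and leaving out replicate 2 kept TRAV16 and TRAV9-2.

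Within N-free CDR3s of all CD8 cells, J and V use was compared between the genotypes. In thymocytes 0 of 43 J segments (0.0%) and 0 of 50 V segments passed the edgeR test, with 11 and 3 at an unadjusted p under 0.05, and DESeq2 called none, while 3 J segments passed without replicate 1 of the Themis+/+ thymocytes. In LN 0 of 46 V segments passed, with 6 at an unadjusted p under 0.05 and with 2 passing without Themis+/+ replicate 1 and 1 without Themis-/- replicate 2, and 1 of 42 J segments was lower in Themis-/- (2.38%). This was TRAJ39, with 63 and 32 N-free sequences in Themis+/+ and 9 and 9 in Themis-/-, or 1.502% and 1.67% against 0.586% and 0.446% of the N-free sequences. The groups did not overlap, and the log2 fold change was -1.62 ± 0.34 (SE, edgeR, adjusted p = 0.0155), or -2.20 with GENCODE germline ends (edgeR, adjusted p = 0.00745). In the other CDR3s TRAJ39 made up 1.64% and 1.49% in Themis+/+ and 1.10% and 1.47% in Themis-/-. The call was lost when any 1 of the 4 libraries was left out (log2 fold change -1.81 to -1.41, edgeR, adjusted p = 0.0635 to 0.426), with DESeq2 and with exact alignments.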

How the data were processed

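Per the labels and methods, TCRα cDNA made from total RNA of sorted cells by template switching was amplified and read on a MiSeq, and clonotypes were extracted with MiXCR. No MiXCR version is stated in the sources used here. The labels' processing notes name CASAVA 1.4 and mm9. Each CDR3 nucleotide sequence was deposited with its read count in the library, not normalized, its fraction of the reads, its V and J hits and a list of alignment positions.

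N-free sequences had a J start (position field 17) minus V end (field 12) of 0 or less. Distinct sequences, not reads, were counted. Libraries were compared with exact permutation tests. Segment use was tested on counts of sequences with edgeR 4.0.16 (quasi-likelihood test, library totals, mean of at least 5 sequences per column), with Benjamini-Hochberg adjustment. DESeq2 1.42.0 was used as an alternative. The exact tests and the edgeR fits were also run on simulated data, DESeq2 was not. Germline ends came from GENCODE release M21 on GRCm38, read from transcripts. They were missing for 812 sequences. Coordinates of the authors' build were not used.

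The named J and V segments are those with an adjusted p under 0.05 and the same side in all 8 libraries of all CD8 cells, up to 8 and 5 in each direction by fold change. The named CDR3s are the 5 N-free ones in the most libraries of each sort and, in each sort, the top 3 by mean share of reads. Residues are named up to 4 in each direction. TRAJ18, TRAJ56, TRAJ13, TRAJ21, TRAJ37, TRAJ23, TRAJ45 and TRAV segments beyond this rule were named after their values were seen. The definition of N-free CDR3s and the lists were chosen with earlier results of these data known. Exact alignments, merged sequences, GENCODE germline ends, tests of the difference between sorts and leaving out single libraries were chosen after the tables had been seen. Replicate numbers were not treated as pairs. A figure legend of the paper speaks of 2 separate experiments, but neither it, the methods nor the labels tie a number to one. Python 3.11.15 with numpy 2.4.6, pandas 2.3.3 and scipy 1.17.1, and R 4.3.3 were used.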

Additional observations from a re-analysis of the deposited data

Results flagged for a closer look

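The difference in N-free share between the genotypes was itself different in the sorts: in all CD8 cells Themis-/- lay above Themis+/+ in both tissues (in thymocytes with the nearest values alike within counting error), in sorted thymocytes it lay below, and in sorted LN cells the genotypes overlapped, which gives a difference of 6.23 percentage points (exact permutation p = 0.00617, 0.0247 with Benjamini-Hochberg adjustment over 4 tests). Of the sorted libraries that carry it, replicate 1 of the Themis+/+ thymocytes had 84 sequences and replicate 1 of the Themis-/- thymocytes 86. Without the first the difference was 3.34 points (exact p = 0.0123). It was no longer called without either sorted Themis-/- thymus library (exact p = 0.224 and 0.167), with exact alignments (exact p = 0.0756) or with GENCODE germline ends (exact p = 0.256), and the part of depth in it was not tested.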

How the results depend on the processing

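Of 381 alternative values of 22 results, 293 kept their direction and their side of the threshold, 14 no longer passed, 9 passed only then, 39 moved and 26 turned direction. Of 235 values for single segments and residues, 154 kept both, 67 no longer passed and 14 turned. No cause was tested beyond what each setting takes away. The share for Themis-/- less Themis+/+ turned to 0.267 points with exact alignments and no palindromic base and to 0.395 with GENCODE germline ends, and ranged from -2.69 to 0.205 when libraries were left out. LN less thymus turned to 1.92 points for the share of reads, 0.283 for sequences of at least 2 reads, 1.69 for single best hits and 0.118 with merged sequences, and ranged from -1.50 to 1.39 when libraries were left out. Sorted less all CD8 was 3.92 points at a gap of -1 or less, 8.69 for single best hits, 3.75 with merged sequences, -0.0379 with exact alignments, -2.26 without palindromic bases and -2.60 with GENCODE germline ends, and ranged from 1.18 to 4.41 when libraries were left out. The overlap of V and J turned to 0.0241 bases for at least 2 reads. Length in LN less thymus was 0.194 bp for at least 2 reads and -0.0376 bp with GENCODE germline ends, with 0.0448 to 0.174 bp when libraries were left out, the highest, which passed the test (exact p = 0.0370), without replicate 1 of the sorted Themis+/+ thymocytes. The genotype difference in length was -0.419 to -0.159 bp when libraries were left out, the ends being those without a replicate number in all groups, where the smallest p is 0.125, and -0.182 to 0.0496 bp in other CDR3s. The difference between both was -0.376 bp with exact alignments. N-free less other length was -1.39 bp at a gap of 1 or less, -0.905 in sorted cells, -1.69 with exact alignments, -1.66 with these and merged sequences and -2.66 with GENCODE germline ends.

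In sorted cells the reads per sequence were -0.0992 on the log2 scale, the single-read share 0.983 points and the nucleotide sequences per amino acid CDR3 0.0332, and the median reads differed by 0.0805 on the log2 scale in all CD8 cells (exact p = 0.500). Without a replicate number only 4 libraries remain and no p under 0.125 is possible. Then N-free sequences were found again more often by 13.9 to 16.6 points, GC was -1.36 to -1.20 points, the nucleotide sequences per amino acid CDR3 0.218 to 0.251, the reads 0.0982 to 0.125 on the log2 scale and the single-read share -1.82 to -1.15 points, with 0 residues called. Serine turned to -0.231 points with exact alignments, -0.187 with these and merged sequences and -0.121 with GENCODE germline ends, aspartate to -0.0141 in sorted cells and lysine to 0.125 with GENCODE germline ends. J segments called were 9 with exact alignments, 11 with these and merged sequences, 7 with GENCODE germline ends, 9 for counts of reads and 4 in sorted cells, and 6 to 8 without a replicate number. TRAJ22 turned to -0.47 with exact alignments, -0.50 with these and merged sequences, -0.23 with GENCODE germline ends and -0.15 in sorted cells. TRAJ26 turned to 0.046 with exact alignments and merged sequences and TRAJ16 to -0.40 in sorted cells. With GENCODE germline ends TRAJ24 turned to 0.053, TRAJ47 to 0.0096 and TRAJ7 to -0.083. V segments called were 6 with DESeq2, 9 at a gap of 1 or less, 13 with merged sequences, 10 with exact alignments, 12 with both, 5 with GENCODE germline ends, 0 for counts of reads and 7 with the first listed best hit, and 0 to 3 without a replicate number.

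The replicate number as a block gave 10 J segments between the genotypes in thymocytes (4 higher, 6 lower; 0 without the block) and 0 in LN, and same-numbered libraries correlated by 0.124 and 0.0750. With only 2 pairs and no label that ties the numbers to an experiment, they were not taken as pairs. For V segments these correlations were 0.131 and -0.183, and crossing the numbers in LN gave 4 calls. The block left the difference in N-free length at -0.289 bp (exact p = 0.0234) and changed no call of a share. J segments called in LN were 0 with DESeq2, 3 with merged sequences, 0 with exact alignments and 0 when any library was left out, and in thymocytes 0 to 3. V segments called in LN were 2 without a filter, 2 with merged sequences, 1 with GENCODE germline ends and 0 to 2 when a library was left out. The depth limits the sorted thymus libraries most, where 1 sequence is over 1% of the sequences in 2 of 4 libraries.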
